A study of Mus musculus with 6 samples.

Results

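The genes described here set the pace of the G1 phase of the cell cycle: the D cyclins Ccnd1, Ccnd2 and Ccnd3, the cyclin-dependent kinases Cdk2 and Cdk6, the retinoblastoma gene Rb1, and the CDK inhibitors Cdkn1a, Cdkn1c, Cdkn2a and Cdkn2b. They were taken by gene name from a table of 750 genes, and all 10 were in it. The study had set aside 371 of the 750 genes for low signal. Cdkn2a was 1 of them, and the other 9 members were among the genes kept and tested in the main comparison. RNA came from tumor endothelial cells (TECs), sorted as living CD31+ CD45- cells from B16-F10 tumors, a mouse melanoma line, grown under the skin for 18 days after injection of 250000 cells, and was counted on the NanoString nCounter, where barcoded probes bind transcripts directly and are counted with no amplification step. There were 3 samples from Atg5BECKO mice (labelled ATG5BECKO, replicates 2, 3 and 5) and 3 from WT mice (replicates 1, 4 and 6). Atg5BECKO mice were C57Blk6 animals with floxed Atg5 alleles (Atg5 fl/fl) and the tamoxifen-inducible Pdgfb-CreERT2 transgene, from a line that also carried a Rosa26 tdTomato reporter, and WT mice were littermates without Cre. Tamoxifen was given once a day for 5 days, and the study used both sexes at 7 to 14 weeks of age. The Pdgfb promoter drives Cre in blood endothelial cells. Atg5, a gene of the autophagy machinery, has no probe in the table, so these values hold no check of the deletion. The methods give a minimum of 3 mice per group for TEC analyses in general. Whether a sample here came from 1 mouse or several is not stated, and a p-value therefore covers only sample-to-sample spread.

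In G1, mitogens raise the D cyclins, which bind CDK4 and CDK6 and phosphorylate the Rb protein. Phosphorylated Rb releases E2F factors, which switch on cyclin E and the genes of DNA replication, and cyclin E with CDK2 carries the cell into S phase. The Cip/Kip inhibitors, encoded by Cdkn1a (p21) and Cdkn1c (p57), bind cyclin-CDK complexes of several kinds, while the INK4 inhibitors, encoded by Cdkn2a (p16) and Cdkn2b (p15), bind CDK4 and CDK6. Endothelial cells of healthy vessels are mostly quiescent, and tumor vessels are known for a larger share of cycling cells.

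Of the members with higher values in every Atg5BECKO sample (Cdk6, Cdkn1a and Cdkn1c, below), the promoters of Cdk6 and Cdkn1a are printed, because Cdkn1a has 2 annotated starts that differ in sequence. RefSeq (GRCm38.p6) gave windows of 250 bases before to 50 bases after a start for 6 of the 10 members, 9 windows in all, and none was found for Ccnd1, Ccnd2, Rb1 and Cdkn1c. Capitals mark an E-box (CACGTG) and a TATA box (TATAAA) in Cdk6, matches to the p53 half-site consensus at the upstream start of Cdkn1a, and GC boxes (GGGCGG) at its downstream start. All are on the plus strand and run 5′ to 3′.
Cdk6, chr5:3343643-3343942: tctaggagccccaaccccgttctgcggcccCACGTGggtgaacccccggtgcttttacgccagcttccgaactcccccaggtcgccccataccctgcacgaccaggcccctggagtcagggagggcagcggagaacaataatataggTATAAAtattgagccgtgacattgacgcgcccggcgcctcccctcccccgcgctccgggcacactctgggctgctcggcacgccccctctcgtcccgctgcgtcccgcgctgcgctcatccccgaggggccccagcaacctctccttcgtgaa
Cdkn1a upstream start, chr17:29090729-29091028: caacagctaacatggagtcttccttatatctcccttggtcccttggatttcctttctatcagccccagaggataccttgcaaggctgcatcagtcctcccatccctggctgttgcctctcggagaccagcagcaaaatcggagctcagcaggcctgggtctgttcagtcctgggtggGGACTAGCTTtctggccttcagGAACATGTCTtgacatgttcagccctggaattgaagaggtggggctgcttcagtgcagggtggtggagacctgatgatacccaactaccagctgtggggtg
Cdkn1a downstream start, chr17:29093519-29093818: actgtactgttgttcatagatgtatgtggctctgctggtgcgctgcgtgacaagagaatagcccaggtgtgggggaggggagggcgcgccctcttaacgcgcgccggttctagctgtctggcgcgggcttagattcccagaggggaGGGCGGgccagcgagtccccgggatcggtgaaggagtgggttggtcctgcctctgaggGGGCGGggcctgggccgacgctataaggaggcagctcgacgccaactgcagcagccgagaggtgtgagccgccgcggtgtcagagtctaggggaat
Motifs were searched on both strands. The E-box and the TATA box of Cdk6 began 220 and 103 bases before the start. At the upstream start of Cdkn1a, GGACTAGCTT began 73 bases and GAACATGTCT 51 bases before the start, and the downstream window held no p53 half-site match. Among 32851 windows of the same length, 8.36% held a p53 half-site match, 7.15% an E-box, 13.6% a TATA box and 35.7% a GC box. Of the remaining members, the Cdk2 window held 6 GC boxes and the E2F-type letters TTTCCCGC, which 1.07% of all windows held and which were also in 1 of the Cdkn2a windows, with 3 GC boxes. The Cdkn2b window held a CRE (TGACGTCA, 1.79% of windows). These are matches of letters, and no binding was measured.

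The deposited values are log2 normalized counts, and whole counts could be recovered from them in every sample. Totals ran from 76784 counts in WT replicate 6 to 244561 in WT replicate 4. WT replicate 6 was the shallowest also by the median count per tested gene (58, against 104 to 139), which makes its low counts the least precise. WT replicate 4 stood apart on the first principal component, which held 57.1% of the variance (-13.34, against -3.41 to 6.28). No gene passed an adjusted p under 0.05 in limma (0% of those tested, smallest adjusted p 0.129; 20 with voom on the recovered counts, none of them a member), while 58 genes were higher (15.3%) and 3 lower (0.792%) in Atg5BECKO at an unadjusted p under 0.05. At the thresholds of the study, a log2 fold change of at least 0.7 with an unadjusted p under 0.05, 41 genes were higher (10.8%) and 3 lower (0.792%). Fold changes were positive for 74.4% of the tested genes, with a median of 0.24 on the log2 scale. Endothelial identity genes such as Pecam1, Cdh5 and Kdr were all kept by the filter (13 of 13), with a mean log2 level of 10.64 ± 0.16 in Atg5BECKO and 10.53 ± 0.04 in WT (SD, n = 3 each).

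The 9 tested members lay on both sides of 0, with a median log2 fold change (Atg5BECKO minus WT) of -0.10. The D cyclins, Cdk2 and Cdkn2b had negative values, and Cdk6, Rb1, Cdkn1a and Cdkn1c positive ones. Thus 5 of 9 (55.6%) were negative, against 25.6% of all tested genes with the deposited scaling. That background depends on the scaling. Of all tested genes, 33% were positive under median centring and 42.2% under quantile normalization, where 4 of 9 members (44.4%) were still positive. The excess of negative members was therefore not seen under those 2 scalings. With the deposited scaling, no member passed the adjusted threshold or both thresholds of the study, and 1, Cdk6, had an unadjusted p under 0.05. In 3 of 9 (33.3%), Cdk6, Cdkn1a and Cdkn1c, every Atg5BECKO sample was above every WT sample, against 25.6% of all tested genes, so this share is near the background. No member had every Atg5BECKO sample below WT, which 2.11% of tested genes had.

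**Figure D1:**
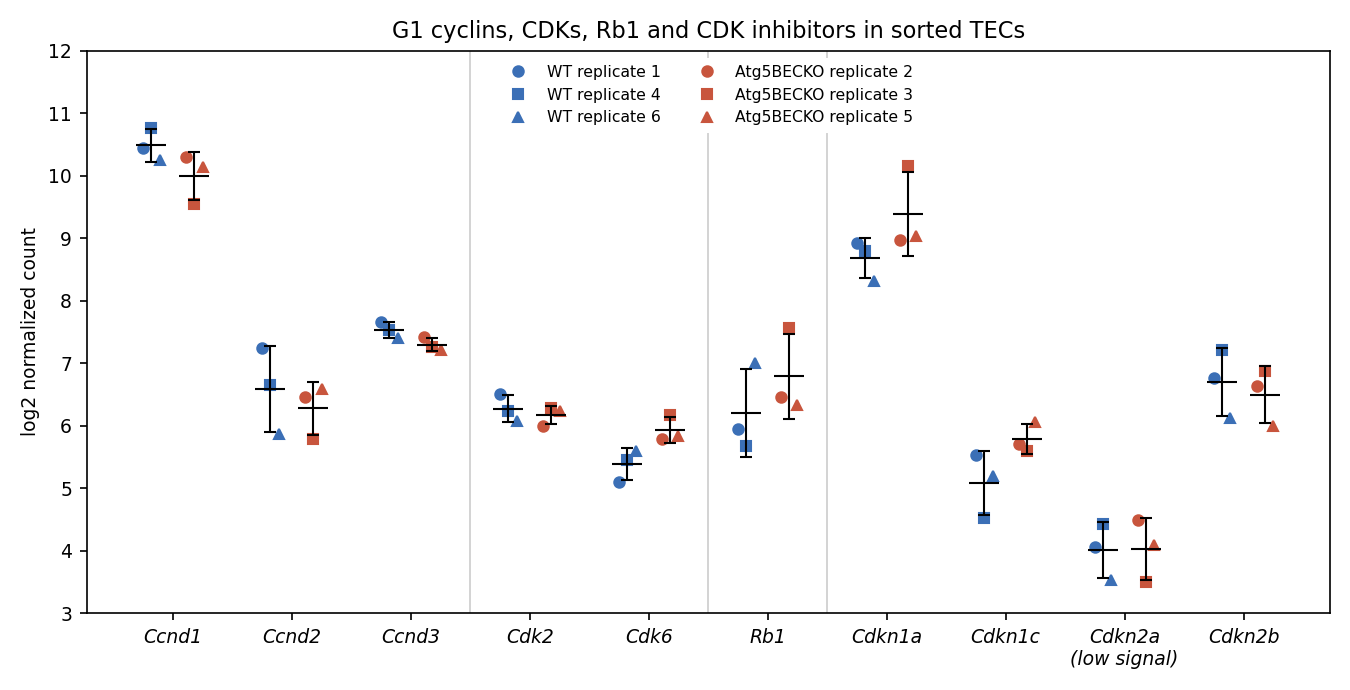
Log2 normalized counts (y axis) of the 10 genes (x axis, in italics) in each of the 6 samples. Symbols are samples, horizontal lines are group means and bars are ± 1 SD (n = 3). The Atg5BECKO points lie above all WT points for Cdk6, Cdkn1a and Cdkn1c, and Atg5BECKO replicate 3 has the highest Cdkn1a value, 10.16.

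The 3 D cyclins all had lower means in Atg5BECKO, with ranges that overlapped those of WT, and none passed the test. Ccnd1, the D cyclin induced by many mitogens, stood at 10.45, 10.76 and 10.25 log2 units in WT replicates 1, 4 and 6 and at 10.30, 9.55 and 10.13 in Atg5BECKO replicates 2, 3 and 5. Atg5BECKO replicate 3 was the lowest and WT replicate 4 the highest, and the groups overlapped because Atg5BECKO replicate 2 was above WT replicate 6. The means were 9.99 ± 0.39 and 10.49 ± 0.26 (SD, n = 3 each), and limma gave a log2 fold change of -0.49 (SE 0.26, 95% interval -1.11 to 0.12) with an unadjusted p of 0.0991 and an adjusted p of 0.379. The exact two-sided permutation test gave p = 0.2, where 3 against 3 samples cannot go below 0.1. Only 5 tested genes (1.32%) had a lower fold change than Ccnd1. Without Atg5BECKO replicate 3 the value was -0.27, and without WT replicate 4 it was -0.35.

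Ccnd2, which is also a cyclin partner of CDK4 and CDK6, was the most variable of the 3. It stood at 7.24, 6.65 and 5.86 in WT and at 6.46, 5.79 and 6.58 in Atg5BECKO, in the same order of replicates. WT replicate 1 was highest, and WT replicate 6 was as low as Atg5BECKO replicate 3, from 30 and 54 counts respectively. Limma gave a log2 fold change of -0.30 (SE 0.39, adjusted p 0.777), and the value was 0.025 without WT replicate 1. Ccnd3 was the tightest, at 7.66, 7.53 and 7.40 in WT and 7.41, 7.27 and 7.21 in Atg5BECKO. Only Atg5BECKO replicate 2 reached into the WT range, just above WT replicate 6. The means were 7.30 ± 0.10 and 7.53 ± 0.13, with a log2 fold change of -0.23 (SE 0.17, 95% interval -0.64 to 0.18, adjusted p 0.557 in limma, exact permutation p 0.2). Of the tested genes, 18 (4.75%) had a lower fold change than Ccnd2 and 32 (8.44%) a lower one than Ccnd3.

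The CDKs differed from each other. Cdk6, the kinase that pairs with the D cyclins, stood at 5.10, 5.45 and 5.60 in WT and at 5.78, 6.17 and 5.83 in Atg5BECKO. Every Atg5BECKO sample was above every WT sample, and the narrowest gap was that between Atg5BECKO replicate 2 and WT replicate 6. The means were 5.93 ± 0.21 and 5.38 ± 0.26, and limma gave a log2 fold change of 0.54 (SE 0.21, 95% interval 0.036 to 1.05) with an unadjusted p of 0.0392 and an adjusted p of 0.266, while the exact permutation test gave its smallest value of 0.1. The counts behind these values ran from 25 in WT replicate 6 (exact Poisson 95% interval 16.2 to 36.9, covering counting error only) to 70 in Atg5BECKO replicate 3. Cdk2, the partner of cyclin E, stood at 6.50, 6.23 and 6.08 in WT and 6.00, 6.29 and 6.23 in Atg5BECKO. The groups were interleaved, and the log2 fold change was -0.10 (SE 0.19, 95% interval -0.56 to 0.36, adjusted p 0.840 in limma). Within a sample, Cdk6 minus Cdk2 ran from -0.40 to -0.12 in Atg5BECKO and from -1.41 to -0.49 in WT. The ranges did not overlap, but Atg5BECKO replicate 5 (-0.40) and WT replicate 6 (-0.49) were close. The latter came from 25 Cdk6 and 35 Cdk2 counts, with counting errors of 0.289 and 0.244 log2 units (SE). The mean difference between the groups was 0.64 log2 units. This difference of 2 probes is read only between samples, and it was not tested.

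Rb1, the pocket protein that restrains E2F, varied more within each group than between them. It stood at 5.95, 5.67 and 7.0 in WT and at 6.46, 7.57 and 6.33 in Atg5BECKO. The high WT value was that of replicate 6, the shallowest library, and the high Atg5BECKO value was that of replicate 3, so the groups overlapped. Limma gave a log2 fold change of 0.58 (SE 0.46, 95% interval -0.50 to 1.67, adjusted p 0.575), and it was 0.19 without Atg5BECKO replicate 3, 0.31 without WT replicate 4 and 0.98 without WT replicate 6.

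The 2 Cip/Kip inhibitors had the highest fold changes of the members, and neither passed the adjusted threshold. Cdkn1a, which encodes p21 and is a known target of p53, stood at 8.93, 8.80 and 8.32 in WT and at 8.97, 10.16 and 9.04 in Atg5BECKO. The groups did not overlap, but Atg5BECKO replicates 2 and 5 were close to WT replicate 1, and most of the difference lay in Atg5BECKO replicate 3, from 1115 counts against 555 in both others. The means were 9.39 ± 0.67 and 8.68 ± 0.32, and limma gave a log2 fold change of 0.71 (SE 0.36, 95% interval -0.15 to 1.57) with an unadjusted p of 0.0929 and an adjusted p of 0.371. The exact permutation p was 0.1. Without Atg5BECKO replicate 3 the log2 fold change was 0.32.

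Cdkn1c, which encodes p57, stood at 5.53, 4.52 and 5.20 in WT and at 5.71, 5.59 and 6.05 in Atg5BECKO. All Atg5BECKO samples were above all WT samples, with Atg5BECKO replicate 3 close to WT replicate 1, and WT replicate 4 was the lowest. The means were 5.78 ± 0.24 and 5.08 ± 0.52, and limma gave a log2 fold change of 0.70 (SE 0.30, 95% interval -0.00012 to 1.40) with an unadjusted p of 0.05003 and an adjusted p of 0.305. Counts were low, at 50, 36 and 19 in WT and 58, 47 and 70 in Atg5BECKO, and the 19 counts of WT replicate 6 have an exact Poisson 95% interval of 11.4 to 29.7. Values lay 0.751 to 1.92 log2 units above the mean of the genes under the low-signal filter in the same sample. The log2 fold change was 0.42 without WT replicate 4, and it passed both thresholds of the study without WT replicate 1 (0.93) and with voom on the recovered counts (0.82), with adjusted p of 0.351 and 0.200.

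Cdkn2b, which encodes p15 and is induced by TGF-beta in many cells, stood at 6.76, 7.21 and 6.12 in WT and at 6.63, 6.87 and 5.99 in Atg5BECKO. Each group had 1 low sample, WT replicate 6 and Atg5BECKO replicate 5, and the ranges overlapped over most of their length. The log2 fold change was -0.20 (SE 0.35, 95% interval -1.03 to 0.63, adjusted p 0.818 in limma), and it was 0.057 without WT replicate 4. Cdkn2a, which encodes p16 and, from another reading frame, p19ARF, stood at 4.06, 4.43 and 3.54 in WT and at 4.49, 3.50 and 4.09 in Atg5BECKO. These came from 6 to 34 counts and lay between -0.912 and 1.17 log2 units from the mean of the low-signal genes of the same sample, so a difference was not detectable at this depth. The group means were 4.03 ± 0.50 and 4.01 ± 0.45, and limma on all 750 genes, without the filter, gave a log2 fold change of 0.02 (SE 0.37, 95% interval -0.84 to 0.88, adjusted p 0.9898, exact permutation p 0.9).

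**Figure D2:**
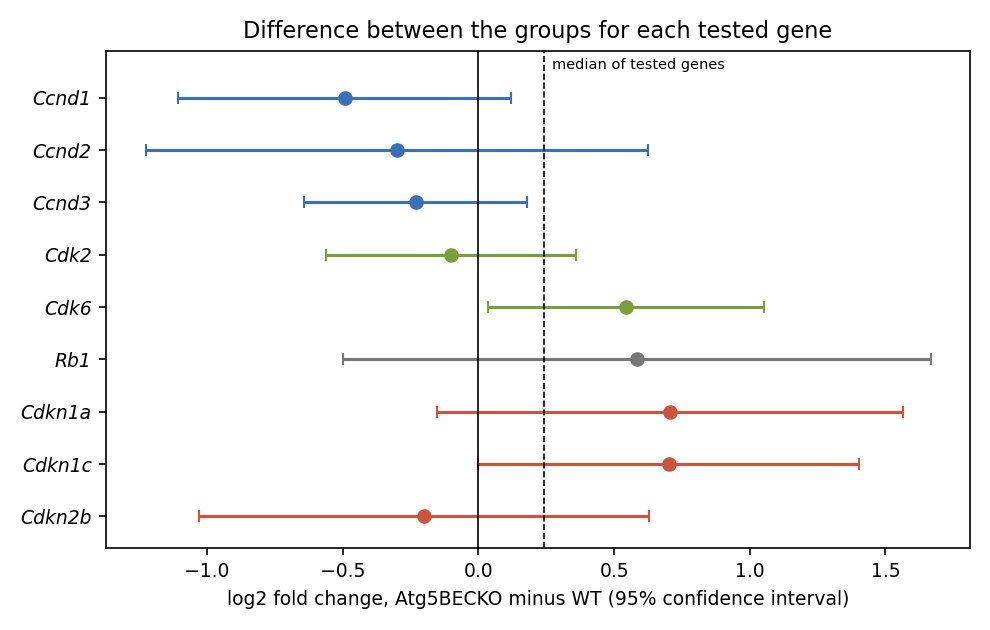
Log2 fold change (x axis, Atg5BECKO minus WT) of the 9 tested genes (y axis), with limma 95% confidence intervals as bars; colors mark D cyclins (blue), CDKs (green), Rb1 (gray) and inhibitors (red), the solid line is 0 and the dashed line the median of all tested genes, 0.24. The interval of Cdk6 lies above 0, from 0.036, and that of Cdkn1c begins at -0.00012.

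Set by role, the median log2 fold change was -0.23 over the 5 D cyclins and CDKs, of which 1 was positive, and 0.70 over the 3 tested inhibitors, of which 2 were positive, beside a median of 0.24 over all tested genes. Since 1 scaling factor per sample shifts every gene of that sample alike, the inhibitors were also set against the D cyclins within each sample, where the factor cancels. The mean log2 level of the D cyclins was 8.45, 8.32 and 7.83 in WT and 8.06, 7.54 and 7.98 in Atg5BECKO, and the groups overlapped through WT replicate 6. For the inhibitors it was 7.07, 6.84 and 6.55 in WT and 7.10, 7.54 and 7.03 in Atg5BECKO. There, too, the groups overlapped. The difference, inhibitors minus D cyclins, was -1.37, -1.47 and -1.29 in WT and -0.96, 0.0036 and -0.95 in Atg5BECKO. All 3 Atg5BECKO samples were above all WT samples, with means of -0.63 ± 0.55 and -1.38 ± 0.09 (SD, n = 3 each). The difference between the group means was 0.75 log2 units, and 0.43 without Atg5BECKO replicate 3. Its level compares different probes and is read only between samples, and since the genes were chosen with results known it was not tested.

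**Figure D3:**
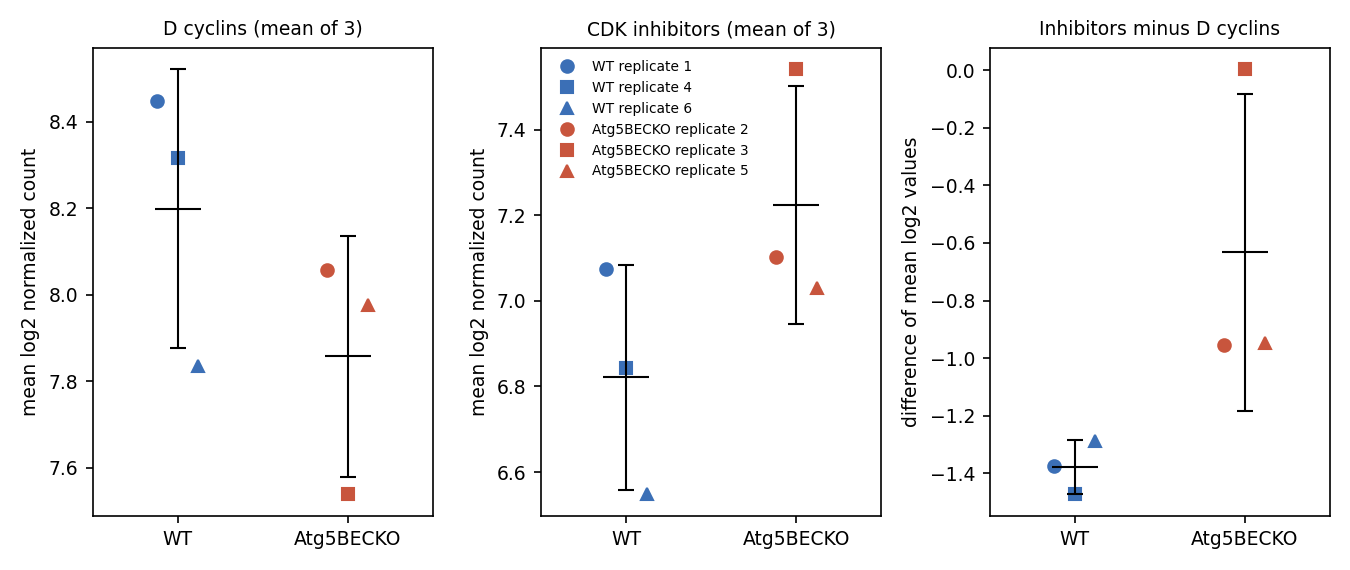
Mean log2 normalized count of the 3 D cyclins (left) and of the 3 tested inhibitors (middle), and the difference of the 2 means within each sample (right), for WT and Atg5BECKO samples (x axis). Symbols are samples, lines means and bars ± 1 SD (n = 3). The differences lie between -1.47 and -1.29 in WT and between -0.96 and 0.0036 in Atg5BECKO.

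How far these values depend on scaling was checked with 3 other scalings, which moved the median over all tested genes from 0.24 to -0.14 (median centring), -0.050 (quantile normalization) and 0.13 (scaling to endothelial identity genes). Median centring and scaling to endothelial identity genes lowered every fold change by 1 amount, so the 5 negative members had to stay negative there. Quantile normalization moved each gene by its own amount, and the 5 were negative there too. The 4 positive members, Cdk6, Rb1, Cdkn1a and Cdkn1c, stayed positive under each scaling. Ccnd1 passed both thresholds of the study under median centring (-0.87, limma adjusted p 0.313) and quantile normalization (-0.77, adjusted p 0.284). Ccnd3, at -0.61 and -0.52, had an unadjusted p under 0.05 in both (limma adjusted p 0.313 and 0.266). In the same scalings the log2 fold change was 0.17 and 0.33 for Cdk6 and 0.20 and 0.21 for Rb1. It was 0.33 and 0.54 for Cdkn1a and 0.32 and 0.45 for Cdkn1c. No member had an adjusted p under 0.05 under any alternative.

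**Figure D4:**
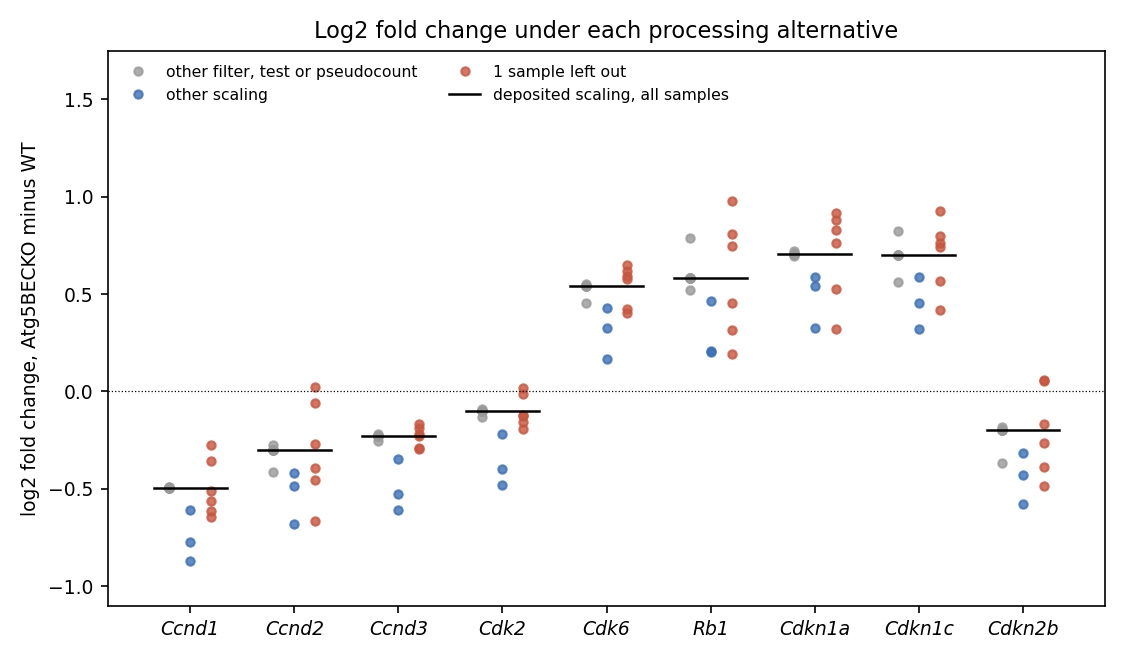
Log2 fold change (y axis, Atg5BECKO minus WT) of each tested gene (x axis) with the deposited scaling and all samples (black line), with another filter, test or pseudocount (gray), with another scaling (blue) and with 1 sample left out (red). Points of Ccnd2, Cdk2 and Cdkn2b cross 0 when 1 sample is left out, and those of the other 6 genes stay on 1 side.

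The genes that act beside or after these members in the cycle were described in 4 lists, in none of which a gene passed the adjusted threshold or both thresholds of the study. Of the Rb and E2F partners, a list that also held Myc and Mxi1, 5 of 7 were tested and 4 were positive. The median was 0.18, and it was -0.20 under median centring and -0.19 under quantile normalization. Mxi1, a Max-binding antagonist of Myc, was higher in every Atg5BECKO sample (0.49, SE 0.24, limma adjusted p 0.351). Rbl2, an Rb-related pocket protein, had a log2 fold change of 0.46 (SE 0.28), and Ccne1, cyclin E1, one of -0.45 (SE 0.33); both overlapped between the groups. Of the proliferation markers, 12 of 17 were tested, 4 were positive and none separated the groups, with a median of -0.10 that was 0.27 without Atg5BECKO replicate 3 and 0.12 without WT replicate 6. Mki67, which marks cycling cells, stood at 7.22, 6.87 and 8.10 in WT and at 8.19, 7.13 and 8.83 in Atg5BECKO (0.65, SE 0.50, limma adjusted p 0.567). Atg5BECKO replicate 3 thus had the lowest Mki67 of its group beside the highest Cdkn1a and the lowest Ccnd1 of all samples. The lowest Mki67 of all samples, 6.87, was that of WT replicate 4, which had the highest Ccnd1 (10.76). Cdc20, an activator of the anaphase-promoting complex, had a log2 fold change of -0.25 (SE 0.26), and Hells, a chromatin remodeler of dividing cells, one of 0.25 (SE 0.36).

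Of p53 and its targets, 5 of 7 were tested and 3 were positive, with a median of 0.051 that was -0.33 under median centring and -0.28 under quantile normalization. Trp53 itself had a log2 fold change of -0.12 (SE 0.21). Mdm2, the p53 target that limits p53, stood at 5.67, 5.35 and 6.04 in WT and at 6.29, 6.29 and 5.97 in Atg5BECKO (0.50, SE 0.23, limma adjusted p 0.350). Its groups overlapped, and unlike Cdkn1a it was not highest in Atg5BECKO replicate 3 alone. Tnfrsf10b, a death receptor, had a value of 0.14 (SE 0.26). The list of TGF-beta ligands and receptors, set beside Cdkn2b, also held Smad5 (0.26, SE 0.18), which is neither a ligand nor a receptor. In this list 6 of 9 genes were tested and 3 were positive. The median was 0.12, and it was -0.26 under median centring and -0.11 under quantile normalization. Tgfbr1 (0.68, SE 0.26, limma unadjusted p 0.0335, adjusted p 0.249) and Tgfbr2 (0.44, SE 0.20, adjusted p 0.344), the receptor subunits, were higher in every Atg5BECKO sample. So was Smad5, which makes 3 of the 6 tested genes of the list, against 25.6% of all tested genes. The ligand Tgfb2 had a value of -0.47 (SE 0.28).

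In sorted cells counted in bulk, fewer cells of a type and less RNA per cell cannot be told apart. Some fibroblast and mural markers moved with the groups: 3 of 10 were tested (Col6a3, Thy1 and Olfml2b), all 3 were lower in Atg5BECKO at the thresholds of the study, with a median of -1.39, and the summed normalized count of the list ran from 354 to 850 in WT and from 236 to 350 in Atg5BECKO. The other 7 were under the low-signal filter and did not all run the same way. Without the filter, Pdgfrb, which defines mural cells, had a log2 fold change of -0.93 (SE 0.64). It was also negative for Col5a1 (-0.83, SE 0.39), Twist1 (-0.47) and Twist2 (-0.094). It was positive for Vcan (1.10, SE 0.40), Cdh11 (0.32) and Fap (0.17). The part of these cells in the values of the D cyclins was not tested. Immediate-early and handling genes also moved, with 7 of 9 tested, 7 of 7 positive, 3 of them past the thresholds of the study, and a median of 0.87. Of all tested genes, 74.4% were positive, and 10.8% were higher and 0.792% lower at those thresholds. The summed count of the immediate-early and handling list ran from 4054 to 6263 in WT and from 7818 to 13566 in Atg5BECKO. It was highest in Atg5BECKO replicate 3, where Cdkn1a was also highest. The part of handling in the Cdkn1a values was not tested. Leukocyte markers, 4 of 16 tested with Ptprc under the filter, summed to 236 to 658 in WT and 381 to 512 in Atg5BECKO, and melanocyte markers, with Mlana tested and Sox10 under the filter, to 36.9 to 85.1 and 32.9 to 53.2. Those sums overlapped between the groups.

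For each member, the tested gene whose log2 values followed it most closely over the 6 samples was found by Pearson correlation. These r values describe 6 points that share libraries and scaling factors, and no p is given. They were 0.97 for Ccnd1 with Got2, 0.93 for Ccnd2 with Pias4 and 0.99 for Ccnd3 with Thy1, the last a gene of the fibroblast and mural list. Cdk2 was closest to Eif2b4 (0.83) and Cdk6 to Ly96 (0.95). Rb1 followed Clec14a (0.97) and Cdkn2b followed Robo4 (0.96), both endothelial identity genes. For the Cip/Kip inhibitors, the closest were Tnfrsf1a for Cdkn1a (0.97) and Pik3r1 for Cdkn1c (0.97). Among the members themselves, Ccnd1 and Rb1 ran opposite to each other (r = -0.91), as did Ccnd3 and Cdk6 (r = -0.90) and Ccnd2 and Rb1 (r = -0.86).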

How the data were processed

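RNA of 6 sorted TEC samples, 3 WT and 3 Atg5BECKO, was counted on the nCounter. Per the study's methods, the authors analysed the counts in nSolver 4.0 (advanced analysis); the deposited values are log2 normalized counts, with 1 factor per sample and no background subtraction. The panel is given in the methods as PanCancer Mouse Immune Profiling. Whole counts were recovered from the values, taking each sample's lowest value as a whole count, and 100% of values were whole within 0.01.

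The genes kept by the study's low-signal filter (all but 371 of 750) were tested with limma 3.58.1 in R 4.3.3 (lmFit, eBayes) with Benjamini-Hochberg adjustment over all of them, and the members also with an exact two-sided permutation test of the difference in means. Sample titles gave the groups and a running number over all samples, which is used here as the replicate number. The fit was tested on simulated data of 3 against 3 samples with known changes. The members and lists were chosen with earlier results of these data known. Genes named beside the members are the 3 with the smallest p in each cell cycle list and the gene most correlated with each member. Myc and Smad5 are named from the cell cycle lists as well. All fibroblast, mural and melanocyte markers are named, and the other marker genes are given only as counts or examples. Alternatives were other filters, scalings, tests, voom on the recovered counts, a pseudocount of 10 and leaving out each sample. From the study's differential expression output only the names of the kept genes were used. Figures were drawn with matplotlib 3.10.9.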

Additional observations from a re-analysis of the deposited data

How the results depend on the processing

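Another filter, an intensity trend, a robust prior and the methods' t-test leave a fold change as it is, which holds for 43 of the 142 alternative values of the members. Of the other 99, 95 kept their direction, and no member reached an adjusted p under 0.05 under any alternative. Ccnd2 (0.025) and Cdk2 (0.016) changed direction without WT replicate 1. Cdkn2b did so without WT replicate 4 (0.057) and without Atg5BECKO replicate 5 (0.054). Some of the 95 were fixed in advance. Groups that do not overlap, as for Cdk6, Cdkn1a and Cdkn1c, cannot change direction when 1 sample is left out. Negative members cannot turn positive under median centring or scaling to endothelial identity genes, which lowered every fold change by 1 amount. With each sample left out in turn, values ran from 0.19 to 0.98 for Rb1, from -0.66 to 0.025 for Ccnd2, from -0.19 to 0.016 for Cdk2 and from -0.49 to 0.057 for Cdkn2b. Cdk6 had an unadjusted p under 0.05 with robust limma, the methods' t-test, a pseudocount of 10 and without WT replicate 6, among the alternatives, and Ccnd1 and Ccnd3 did under median centring and quantile normalization. Cdk6 and Cdkn1c have no value under a filter on a mean log2 value of at least 6.

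The median of the D cyclins and CDKs was -0.61 under median centring and -0.49 under quantile normalization, and ran from -0.30 to 0.016 with 1 sample left out (0.016 without WT replicate 1). That of the inhibitors was 0.25 when only genes averaging at least 6 log2 units were kept and 0.32 under median centring, and ran from 0.32 to 0.83 with 1 sample left out. The difference of inhibitors and D cyclins within a sample was 0.78 under quantile normalization, 0.69 with a pseudocount of 10 and 0.74 with voom. It ran from 0.43 to 0.91 with 1 sample left out, where it could not change direction because the groups did not overlap. For the Rb and E2F partners the median was 0.46 under that same filter, -0.20 under median centring and -0.19 under quantile normalization (0.10 to 0.45 with 1 sample left out). For p53 and its targets it was -0.33 and -0.28 under those scalings (-0.12 to 0.19), and for the TGF-beta list -0.26 and -0.11. For the proliferation markers it ran from -0.19 to 0.27 with 1 sample left out. The causes were not tested.

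Over all tested genes, 20 passed the adjusted threshold with voom on the recovered counts, and 0 to 18 with 1 sample left out (18 without WT replicate 6). At the thresholds of the study, 17 genes were higher and 13 lower under median centring, and 21 higher and 9 lower under quantile normalization. Without the low-signal filter 5 genes were lower, and 1 with the methods' t-test. With 1 sample left out, 30 to 58 were higher and 3 to 4 lower. The labels give no pairing of samples, so no paired analysis was run. Depth limits Cdkn2a, Cdkn1c and Cdk6 most, above all in WT replicate 6.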
